A study of Mus musculus with 7 samples.

Results

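The complement genes examined here are 9 components of the cascade that the liver makes: C2, C3, C4b, C9, Hc, Cfb, Cfi, C8b and Masp1. A member was measured where at least 1 probe set of the array carried its symbol and no other. That held for 6 of the 9 genes, with 8 of the 10833 probe sets that name a single gene. C4b was represented only by 2 probe sets that also name C4a, and C3 and C8b had no probe set used here, so these 3 genes were not analysed. Liver RNA of female mice was measured on 7 Affymetrix U74Av2 arrays, each labelled as 1 mouse. The animals were phenotypically normal mice (+/+ or +/df) of the Ames dwarf stock, had free access to standard food and were killed at 24 to 26 months of age. The labels disagree on genotype, since the description field names the dwarf genotype (df/df) while titles and source names give normal animals. Igf1, which the liver makes under growth hormone, a hormone that df/df mice lack, had signals of 8348 to 9553 on all 7 arrays. No array known to be from a df/df mouse was available for comparison, so the genotype was not tested. All samples form 1 group numbered 1, 2, 3, 4, 6, 7 and 8, so the data give levels and the spread between animals, with no contrast between conditions. Each label describes 1 mouse, but none says outright that the RNAs are from different mice, and p-values then measure only the spread between these samples, which may be technical. With that limit, the 7 samples are called animals below.

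Complement is a cascade of plasma proteins, most of them secreted by hepatocytes, that marks and lyses microbes. Recognition molecules activate proteases, which assemble convertases that cleave C3 and then C5, and the fragment C5b starts the membrane attack complex. Among the measured members, Masp1 encodes a protease of the lectin pathway, C2 and Cfb encode the proteases of the classical and alternative pathway convertases, and Cfi encodes factor I, which inactivates C3b and C4b. Hc encodes C5, and C9 encodes the protein that polymerises into the pore. In RefSeq's gene table (GRCm38.p6), Cfb and C2 are next to each other on chromosome 17, while Masp1, Cfi, Hc and C9 lie on chromosomes 16, 3, 2 and 15.

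Promoter sequence from RefSeq (GRCm38.p6) was held for 2 of the 6 measured members, Hc and C9, whose signals are compared with each other below. The 250 bases before the listed start are shown 5′ to 3′, for C9 from chr15:6445096-6445345 on the plus strand and for Hc from chr2:35061413-35061662 on the minus strand, with matches to 2 motifs of factors active in liver in capitals.
C9: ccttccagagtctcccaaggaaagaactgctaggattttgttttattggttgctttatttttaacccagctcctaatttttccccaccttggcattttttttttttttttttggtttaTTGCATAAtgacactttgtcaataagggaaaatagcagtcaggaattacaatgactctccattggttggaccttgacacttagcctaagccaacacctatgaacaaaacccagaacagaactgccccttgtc
Hc: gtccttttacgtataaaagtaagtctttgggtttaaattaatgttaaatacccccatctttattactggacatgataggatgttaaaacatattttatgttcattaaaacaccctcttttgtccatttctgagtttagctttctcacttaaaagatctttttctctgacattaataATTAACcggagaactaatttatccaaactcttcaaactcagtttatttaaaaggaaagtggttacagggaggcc
The C9 window holds 1 match to TTGCNNAA, a C/EBP motif, at 132 to 125 bases before the start, and 9.56% of 32851 listed promoter windows of that length hold at least 1. The Hc window holds 1 match to GTTAAT, a short HNF1 motif, at 74 to 69 bases before the start, against 6.43% of all windows. TATAAA, searched on the given strand only, occurred in Hc at 239 to 234 bases before the start and occurs in 7.59% of windows. The other motifs, searched on both strands like the first 2, were TTCNNNGAA (GAS) and CAAAGTCCA (HNF4), held by 7.02% and 0.384% of windows, and neither matched here. No motif matches overlapped. A match is a match of letters only.

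Signals are intensities scaled to a common trimmed mean and have no unit that compares 1 probe set with another. Each member is therefore described across animals on its own probe set. Masp1 (NCBI gene 17174), the lectin pathway protease, had a lowest signal of 1172 on replicate 8, a median of 1295 and a highest signal of 1445 on replicate 4, with a mean of 1305 ± 100.4 (SD, n = 7). C2 (NCBI gene 12263), the protease of the classical and lectin pathway convertase, had 1380 on replicate 4, a median of 1663 and 2002 on replicate 8, with a mean of 1718 ± 219 (SD, n = 7). Replicates 6, 7 and 8 were the highest for C2 and did not overlap with replicates 1 to 4. A second C2 probe set lay between 35.0 and 51.7, below the floor of 50.04 on 5 of 7 arrays, and gives no information on spread.

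Cfb (NCBI gene 14962), the protease of the alternative pathway convertase, was measured by 2 dim probe sets. The brighter one had 137 on replicate 2, a median of 163 and 232 on replicate 3, with a mean of 179 ± 41.0 (SD, n = 7). It fell into 2 clumps, with 210 to 232 on replicates 3, 4 and 7 and 137 to 163 on the others. The second Cfb probe set had 109 on replicate 4, a median of 156 and 188 on replicate 6, with a mean of 155 ± 28.2 (SD, n = 7). Its lowest values, 109 and 131, came from replicates 4 and 3, where the brighter one was highest, at 223 and 232. The probe sets thus ordered the animals differently, and the order of the animals for Cfb depends on which is read. Neither mean reached 200.1, the level required for the test of spread.

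Cfi (NCBI gene 12630), the inhibitor, had 8674 on replicate 1, a median of 9420 and 10586 on replicate 3, with a mean of 9435 ± 607 (SD, n = 7). Hc (NCBI gene 15139), which encodes C5, had 3019 on replicate 6, a median of 3648 and 3980 on replicate 3, with a mean of 3532 ± 312 (SD, n = 7). Some laboratory strains carry a deletion in Hc and lack C5. All 7 animals had Hc signals within a 1.32-fold range, and whether they carry the deletion was not tested. C9 (NCBI gene 12279), the pore protein, had 2334 on replicate 6, a median of 2664 and 3225 on replicate 3, with a mean of 2743 ± 362 (SD, n = 7). C9 was high on replicates 3 and 7, at 3225 and 3179, and Hc shared the highest animal, replicate 3, and the lowest, replicate 6.

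**Figure D1:**
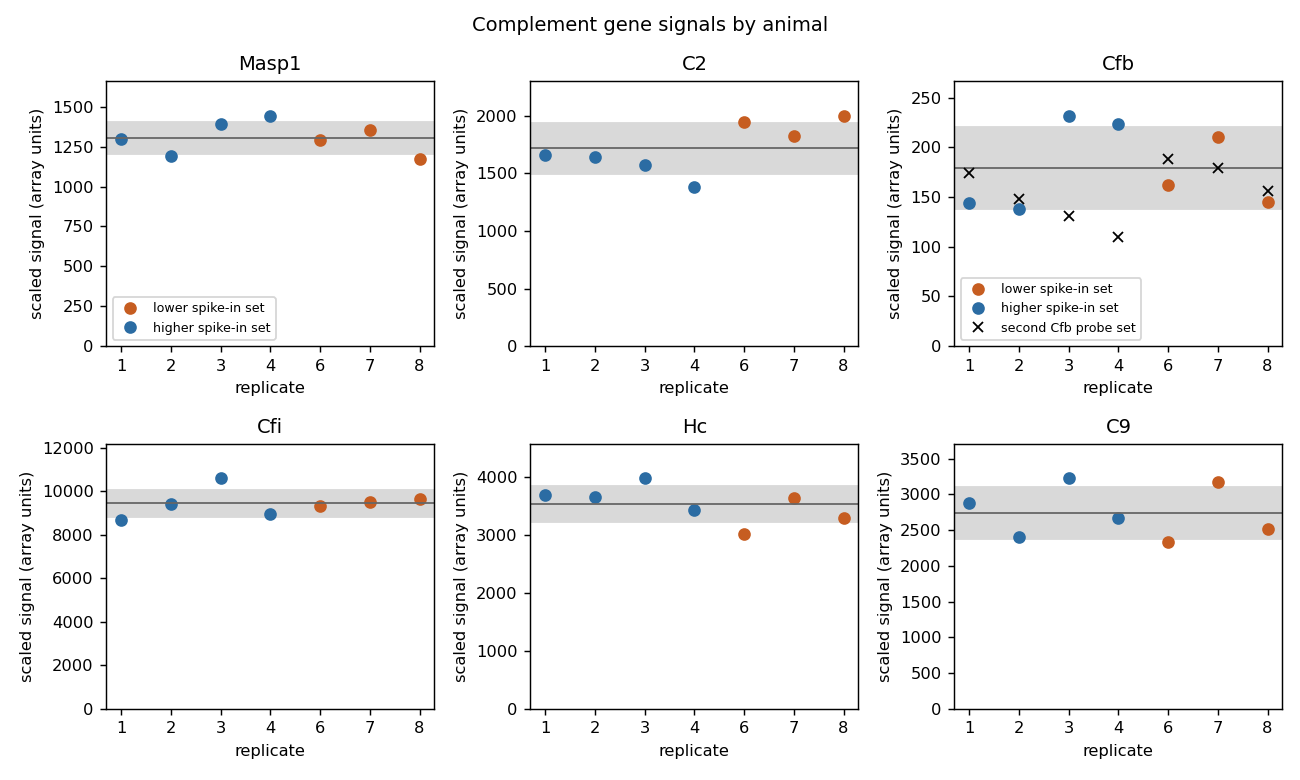
Scaled signal (array units, axes starting at 0) of the 6 measured complement genes in each of the 7 animals, coloured by array set, with the mean as a line and 1 SD as a grey band. C2 is higher on replicates 6 to 8 than on replicates 1 to 4, and the crosses of the second Cfb probe set are lowest on replicates 3 and 4, where the circles of the brighter one are highest.

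Replicate 3 had the highest signal for 4 of the 6 members, Cfb, Cfi, Hc and C9, while 14.4% of all tested genes were highest there. The count was 3 of 6 with arrays centred on their medians, where C9 was highest on replicate 7, and 3 of 6 with all probe sets of a gene averaged. The summed signal of 10 hepatocyte markers, Alb among them, was also highest on replicate 3, at 186778, and lowest on replicate 6, at 155568. The score of these markers had r with the 6 members from -0.214 for C2 to 0.691 for Hc, and 0 of 6 passed by exact permutation (smallest adjusted p = 0.308, n = 7). For Hc, rho was 0.679 (exact permutation p = 0.110, adjusted p = 0.657, n = 7), r with set means removed was 0.555, and r without replicates 3 and 6 was -0.064, so it rests on these 2 animals. In whole liver, fewer cells of a type and less RNA per cell cannot be told apart.

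The spread between animals was examined for the 5 members that passed the filter on level (C2, C9, Hc, Cfi and Masp1). The ratio of the highest to the lowest animal was 1.22 for Cfi, 1.23 for Masp1, 1.32 for Hc, 1.38 for C9 and 1.45 for C2, with a median of 1.32 over these 5, while the median over all 4481 tested genes was 1.44. The SD of log2 signals was 0.09 for Cfi, 0.11 for Masp1, 0.13 for Hc, 0.19 for C2 and 0.19 for C9, and the median over all tested genes was 0.18. The SD expected at each gene's level, from a limma trend, was 0.13, 0.16, 0.15, 0.16 and 0.15 in the same order. Thus 3 of 5 members lay below the expected SD, as did 50.9% of all tested genes. The limma-based test for more spread than expected called 0 of 5 members, with adjusted p from 0.990 for C2, C9 and Hc to 0.991 for Masp1 and Cfi, and 0 of 5 had an unadjusted p under 0.05. Over all tested genes it called 0% at an adjusted p under 0.05 and 6.72% at an unadjusted p under 0.05. When SDs were raised 5 times in a simulation the test found 0 of 200 such genes, and it found 166 of 200 raised 10 times, so moderate excess spread in a member was not detectable with 7 arrays. Without replicate 3 the SD of Cfi was 0.06, and that of C2 was 0.09 with both probe sets averaged, as follows when the second lies at or near the floor.

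**Figure D2:**
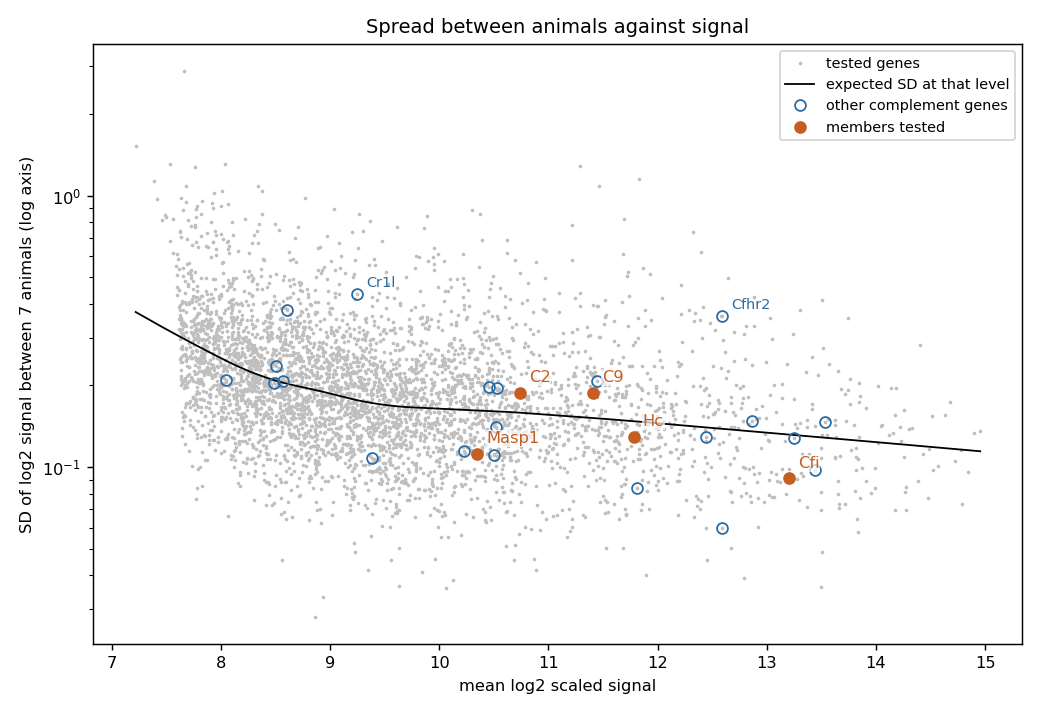
SD of log2 signal between the 7 animals (log axis) against mean log2 scaled signal, with 1 grey point per tested gene and the expected SD as a line. The 5 tested members lie at SDs of 0.09 to 0.19, near the line, and Cfhr2 and Cr1l lie above it at 0.36 and 0.43.

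The arrays fall into 2 sets by their bacterial spike-in controls, which on the log2 scale averaged 10.20 to 10.24 for replicates 6, 7 and 8, and 10.64 to 10.97 for replicates 1, 2, 3 and 4. The split comes from the controls, not from a label, and was applied after the values were seen. C2 averaged 1924 ± 89.6 on replicates 6 to 8 (SD, n = 3) and 1563 ± 128 on replicates 1 to 4 (SD, n = 4). The log2 difference was 0.30 with a standard error of 0.10, and its limma adjusted p was 0.593 over 4481 genes. The 2 sets did not overlap for 1 of 5 tested members, C2, and for 7.34% of all tested genes. Limma called 0 of 5 members and 0% of all genes at an adjusted p under 0.05, while 6.9% of all genes had an unadjusted p under 0.05, C2 among them. The log2 differences of the other 4 tested members lay between -0.15 for Hc and 0.02 for Cfi. Animals and array sets cannot be told apart for C2.

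Whether members varied together was examined over the 15 pairs of the 6 measured genes, on the brighter probe set of each. No pair passed after Benjamini-Hochberg adjustment over the 15 pairs, where the smallest adjusted p was 0.122 by exact two-sided permutation, and 2 pairs had an unadjusted p under 0.05. Hc and C9, which both act in the terminal pathway, had r = 0.760 (exact permutation p = 0.045, adjusted p = 0.341, n = 7) and rho = 0.714 (exact permutation p = 0.088, adjusted p = 0.440). Without replicates 6 and 8, the farthest from the median Hc signal, r was 0.549, and leaving out single animals gave 0.636 to 0.945. With the means of the array sets removed r was 0.839. Among all tested genes, 3.15% had an r with Hc at least as high as that of C9. The other pair was Masp1 and Cfb: the 3 animals with the highest Cfb, replicates 3, 4 and 7, were also the 3 with the highest Masp1, at 1352 to 1445 against 1172 to 1295 on the others. Since Cfb fell into 2 clumps of 3 and 4 animals, no r is given within or across them, though 0.335% of tested genes followed Masp1 at least as closely as the brighter Cfb probe set did. This share is computed across the same 2 clumps, so it does not measure how closely Cfb followed Masp1. The order of the animals was not shared by the second Cfb probe set, which was lowest on replicates 3 and 4. On that probe set, r with Masp1 was -0.458 (exact permutation p = 0.299, adjusted p = 0.366, n = 7). Over the 10 pairs of the 5 tested members r ranged from -0.650 for Masp1 and C2 to 0.760, with a median of 0.196, while the median over all pairs of tested genes was 0.00035. Without the 2 animals farthest from the median Masp1 signal, replicates 4 and 8, r of Masp1 and C2 was -0.017, while with set means removed it was -0.801. Over all 7 animals its exact permutation p was 0.112 (adjusted p = 0.442, n = 7), rho was -0.750 (exact permutation p = 0.066, adjusted p = 0.440, n = 7), and 6.61% of tested genes were at least as far below 0 with C2 as Masp1 was.

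**Figure D3:**
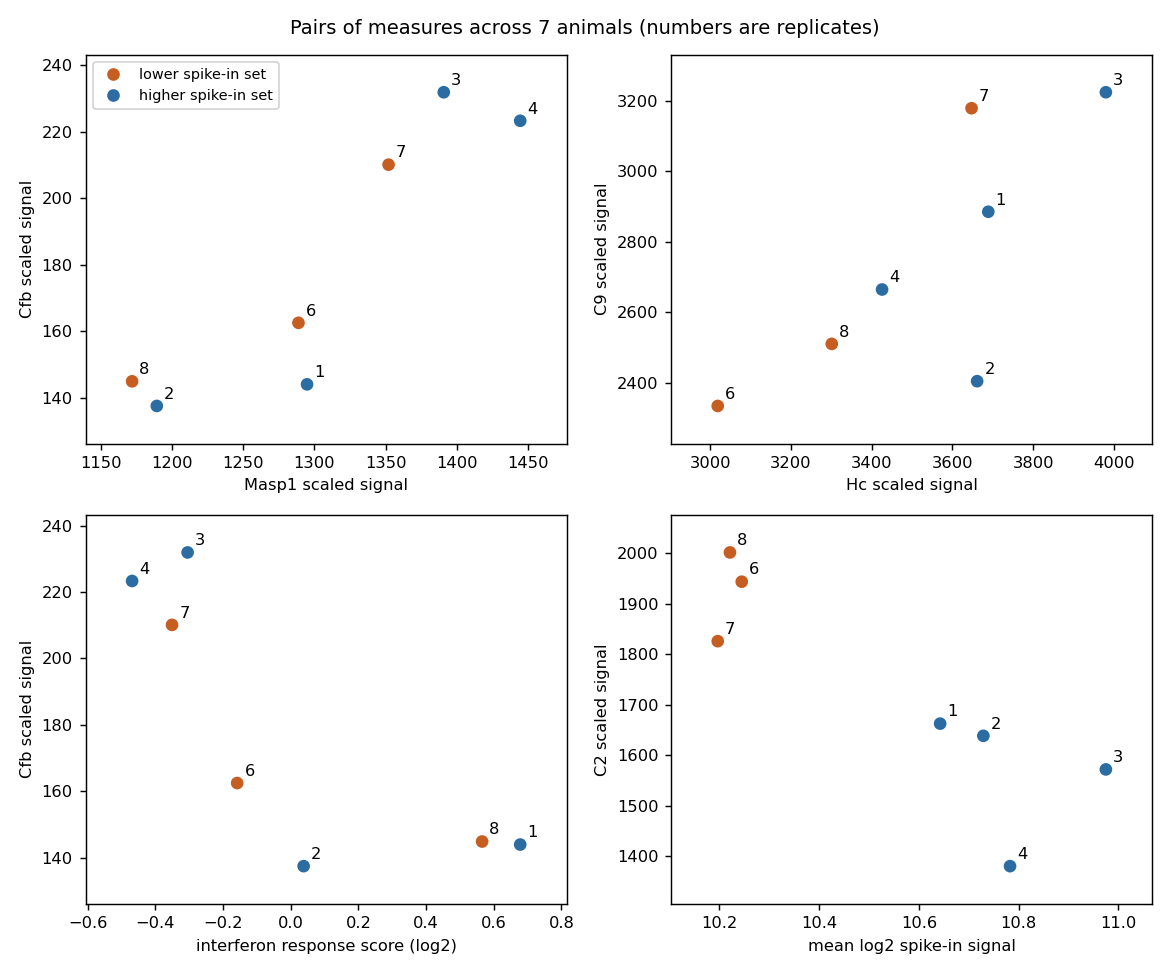
Pairs of measures across the 7 animals, with 1 point per animal labelled by replicate and coloured by array set. Hc and C9 are both lowest on replicate 6 and highest on replicate 3, Cfb is in 2 clumps against Masp1 and against the interferon response score, and C2 separates with the spike-in signal.

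Complement genes are among the known targets of acute phase and interferon signals, so each member was compared with scores of those lists and of Kupffer cell markers, in 18 combinations. None passed, with adjusted p from 0.429 to 0.903 by exact permutation, and 1 had an unadjusted p under 0.05. The acute phase score, a mean over 20 tested genes, was highest on replicates 7 and 3, at 0.21 and 0.19, and lowest on replicate 4, at -0.25. Replicates 7 and 3 also had the lowest 3' to 5' Gapdh control ratios, a measure of RNA integrity and labelling, at 0.788 and 0.804. Replicate 4 had 0.899, and the highest ratio was 0.907 on replicate 1. The part of RNA quality in this score, and in its r with the members, was not tested. Saa2, a serum amyloid A gene on a probe set that can read related genes, reached 12083 on replicate 7 and 6261 on replicate 3, above its range of 1165 to 2237 elsewhere. Lcn2, which binds bacterial siderophores, had 714 on replicate 7 against 240 to 377 on the others. C9 had r = 0.699 with this score (exact permutation p = 0.086, adjusted p = 0.429, n = 7) and rho = 0.571 (exact permutation adjusted p = 0.720). Without the 2 animals farthest from the median score it was 0.836, and with set means removed it was 0.764. Hc had r = 0.614 and Cfi r = 0.673 (exact permutation p = 0.137 and 0.095, adjusted p = 0.494 and 0.429, n = 7), with rho = 0.393 and 0.786 (exact permutation p = 0.396 and 0.048, adjusted p = 0.791 and 0.298). Without the 2 farthest animals these were 0.796 and 0.785, and with set means removed 0.963 and 0.671. Masp1 and C2 had r = -0.047 and 0.306 (exact permutation p = 0.903 and 0.505, adjusted p = 0.903 and 0.802, n = 7), with rho = -0.107 and 0.250 (exact permutation p = 0.840 and 0.595, adjusted p = 0.889 for both). These were 0.487 and -0.579 without the 2 farthest animals, and 0.013 and 0.285 with set means removed. For Cfb the adjusted p by exact permutation was 0.802 (n = 7). With the Kupffer cell score the adjusted p of the 6 members lay between 0.802 and 0.903 by exact permutation (n = 7).

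Replicates 1 and 8 had the highest scores of the interferon list, 0.68 and 0.57, and scores lay between -0.47 and 0.04 on the other 5 animals. The interferon-induced GTPase Igtp had 3095 on replicate 8 and 2826 on replicate 1, above its range of 719 to 1361 elsewhere. Gbp2, another such GTPase, had 402 on replicate 8, 334 on replicate 2, 329 on replicate 1 and 71.5 to 208 on the other 4 animals. Cfb, known as an interferon-inducible gene, had 144 on replicate 1 and 145 on replicate 8 on its brighter probe set, among its 4 low animals. On the second probe set, Cfb had 174 and 156 on these 2 animals, within the range of the other 5. The unadjusted p under 0.05 belonged to this score and the brighter Cfb probe set (exact permutation p = 0.035, adjusted p = 0.429, n = 7). As both measures fell into clumps, no r is given. C2, also known to respond to interferon, had 1663 and 2002 on replicates 1 and 8, and 1638 on replicate 2. It did not pass with this score, at r = 0.427 (exact permutation p = 0.333, adjusted p = 0.802, n = 7). This was 0.777 with set means removed and 0.427 without replicates 1 and 8. Masp1 had r = -0.696 (exact permutation p = 0.087, adjusted p = 0.429, n = 7) and rho = -0.750 (exact permutation p = 0.066, adjusted p = 0.298). Its r was -0.976 without replicates 1 and 8 and -0.719 with set means removed. For Cfi, Hc and C9 the adjusted p by exact permutation was 0.802, 0.903 and 0.802 (n = 7).

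Array measures were compared with the members in the same way, in 18 combinations. The r of Cfi was -0.790 with the ratio of 3' to 5' Gapdh control signal, a measure of RNA integrity and labelling that lay between 0.788 and 0.907 (exact permutation p = 0.025, adjusted p = 0.223, n = 7), and rho = -0.893 (exact permutation p = 0.012, adjusted p = 0.214). Without replicates 3 and 7, whose ratios lay farthest from the median, it was -0.953. Removing the set means gave -0.836. Without replicate 7 it was -0.973 and passed, with an adjusted p of 0.025 by exact permutation (n = 6). With all 7 arrays it did not pass. The beta-actin 3' to 5' ratio, the second such control measure, had r = 0.174 with Cfi (exact permutation p = 0.711, n = 7). Its r was 0.210 with C2 and 0.399 with Masp1, but -0.920 and 0.831 with set means removed, values without a test. For Cfi, Hc and C9 the values with set means removed were 0.153, -0.048 and 0.328. For Cfb, which fell into 2 clumps, no r is given. Within each array set, the animals high for the brighter Cfb probe set had the higher beta-actin ratios. These were 1.56 and 1.74 on replicates 3 and 4 against 1.34 and 1.31 on replicates 1 and 2. In the other set, replicate 7 had 1.78 against 1.69 on replicates 6 and 8. Replicates 3, 4 and 7 were also the highest for Masp1. The part of RNA quality in the differences of the members was not tested. The other unadjusted p under 0.05 was that of C2 and the spike-in signal (exact permutation p = 0.014, adjusted p = 0.223, n = 7), which restates the array sets.

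The genes whose log2 signals were most alike to each tested member over the 7 arrays are given as a description, picked from 4481 genes. For C2 they were Gadd45a and Dusp6, with r = 0.966 and 0.964, and with set means removed 0.882 and 0.854. For Hc they were Ehmt2 and the hemopexin gene Hpx, with r = 0.974 for both, and for C9 they were 1810058I24Rik and Itih2, with r = 0.975 and 0.961. Hpx is an acute phase protein gene and Itih2 encodes a heavy chain of a plasma protease inhibitor. For Cfi they were Tmed9 and Dlg1, with r = 0.972 and 0.968, and for Masp1 they were Sash1 and Akr7a5, with r = 0.947 and 0.939. With set means removed, these 8 values lay between 0.942 and 0.982. All rest on 7 points from the same arrays.

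Of 44 other complement genes listed, 27 were measured and 21 passed the filter on level. The test of spread called 0 of 21 at an adjusted p under 0.05 in the limma-based fit, and 2 of 21 had an unadjusted p under 0.05, beside 6.72% of all tested genes. Their median log2 SD was 0.15, against 0.18 for all tested genes, medians that were not matched for signal level. Of the 21 genes, 11 lay below the SD expected at their level, as did 50.9% of all tested genes. For the recognition stage, the C1q chain genes C1qa, C1qb and C1qc, which macrophages make, had 1484 ± 194, 670 ± 49.6 and 1419 ± 203, and the mannose-binding lectin genes Mbl1 and Mbl2 had 1205 ± 94.0 and 5571 ± 504 (SD, n = 7 for each). Masp2, the lectin pathway protease that works with Masp1, had 1477 ± 148 (SD, n = 7). These 6 genes were named for their place in the pathway after their values were seen. C8g, which encodes the gamma chain of C8, had 11137 ± 771 (SD, n = 7), with a lowest value of 10202 and a highest of 12593. Its log2 SD was 0.10, but 0.06 without replicate 4. C8g also has a second probe set that lies below the floor on all 7 arrays. A second C1qb probe set had r = -0.084 with the brighter one (n = 7).

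Among the inhibitors, Serping1, which encodes the C1 inhibitor, had 9787 ± 864, and Vtn and Clu, which encode plasma inhibitors of the membrane attack complex, had 11906 ± 1222 and 7475 ± 775 (SD, n = 7 for each). The ratios of the highest to the lowest animal were 1.25, 1.36 and 1.32 in that order. A second Clu probe set had r = 0.418 with the brighter one (n = 7). Cfhr2, a factor H-related gene whose probe set can read relatives, had 3837 on replicate 7, a median of 6541 and 7942 on replicate 3. Its log2 SD was 0.36, against 0.14 expected (limma adjusted p = 0.532). It was 0.22 without replicate 7 and 0.24 with its 2 probe sets averaged. Cr1l, which encodes the membrane regulator Crry, had 390 on replicate 2, a median of 653 and 850 on replicate 4. Its log2 SD was 0.43, against 0.18 expected (limma adjusted p = 0.600), but 0.23 with its 2 probe sets averaged. Cd59b, an inhibitor of the pore, had 263 to 515, and Cfp, which encodes the stabiliser properdin, had 273 to 433. Itgax, a complement receptor chain of myeloid cells, had 210 to 316. The log2 SDs of Cd59b, Cfp and Itgax were 0.38, 0.24 and 0.21.

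**Figure D4:**
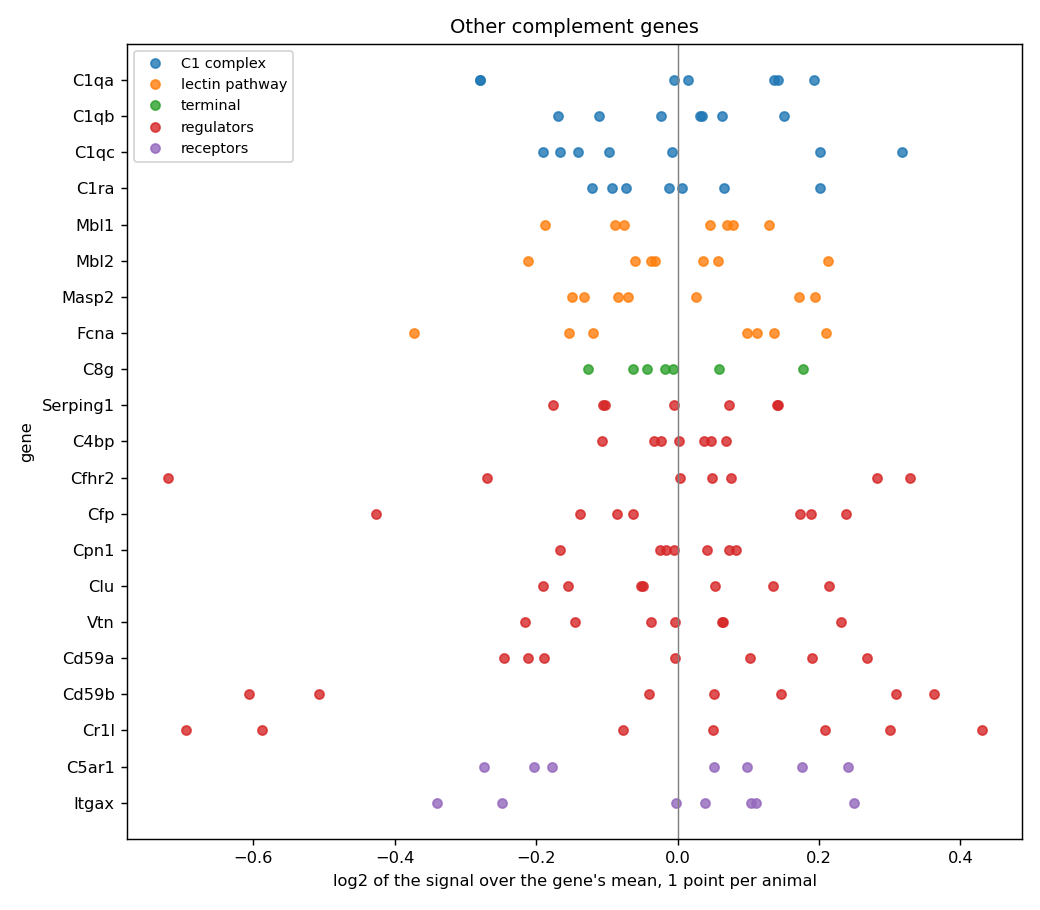
Log2 of the signal over the gene's own mean for the 21 other complement genes that passed the filter, with 1 point per animal and colours by role. Cfhr2, Cr1l and Cd59b spread the widest, with log2 SDs of 0.36, 0.43 and 0.38.

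Across the whole series, any 2 arrays had a Pearson r of 0.961 to 0.975 across tested genes, which are not independent replicates. All 10 hepatocyte markers were measured and passed the filter on level, with means of 1251 for Hnf4a to 31853 for Alb. The 7 measured Kupffer cell markers summed to 3801 on replicate 1 and 5601 on replicate 7, and 6 of them, Clec4f among them, lay above the floor on all 7 arrays, while Marco lay below it on 6 of 7. Skeletal muscle markers summed to 10670 on replicate 1 and 5959 on replicate 2, which stood apart from the other 5 arrays at 2185 to 2317. Their part in the complement signals was not tested.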

How the data were processed

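Total liver RNA was hybridised to 1-colour Affymetrix mouse U74Av2 arrays, per the labels. The authors deposited linear intensities for each probe set. Their software is not given in the sources used here, and the values show that the authors scaled each array to a 2% trimmed mean of 500.4. No detection calls were used, so dim signals may be background. Precision is limited by the number of arrays.

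Of 12488 probe sets, 396 named several genes and 1237 none, and these were unused, as were 66 Affymetrix controls except for array measures. All 8 member probe sets matched the RefSeq gene table by NCBI gene number, with symbols unchanged. Each array was brought to the average trimmed mean, a floor of 0.1 of it (50.04) was applied, and values were turned into log2. A gene was represented by its brightest probe set (8251 genes), and 4481 genes whose mean reached 0.4 of the trimmed mean (200.1) entered the test. Means and SDs are of scaled signals before the floor. The main test set each variance against a robust prior that follows the level (limma 3.58.1, R 4.3.3, prior degrees of freedom 5.61, upper-tail F test, Benjamini-Hochberg at 0.05). Simulated data for 4481 genes, 200 of them changed, gave 0, 0, 0 and 166 recovered genes for SDs 2, 3, 5 and 10 times as large, and the last run made 2 false calls. Correlations used log2 signals and all 5040 pairings. Scores are means of log2 signal minus the gene's mean, members left out. Python 3.11.15, numpy 2.4.6, pandas 2.3.3, scipy 1.17.1 and matplotlib 3.10.9 were used.

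Members and lists were chosen with earlier results of these data known. Genes named are all members, the 5 other complement genes of the highest signal and the 5 of the largest SD, 2 genes most alike to each tested member and 2 of the largest SD in the acute phase and interferon lists. The array sets, the hepatocyte comparison and the second Cfb probe set were examined after the values were seen. Alternatives were other scalings, floors, filters and priors, an offset, averaged probe sets and leaving out each array.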

Additional observations from a re-analysis of the deposited data

Results flagged for a closer look

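None of the 8 member probe sets had an animal that stood apart from the other 6 by the gap test. Among the 31 items tested, 1 did: Lcn2, an acute phase gene, had 714 on replicate 7, where the next highest value was 377 and the lowest 240, so the gap took 0.711 of the range, above the critical value of 0.568. Chance gives about 1 such case in 20 groups that were not selected. Lcn2 was named for its large SD in these same arrays, so that rate does not apply to it.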

How the results depend on the processing

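Counts of calls were 0 for the members' spread under all 19 alternatives and 0 for the 15 pairs under the 15 that were run for them. Over all genes the test of spread called 1 gene, not a member, when an offset replaced the floor, and 0 to 1 when single replicates were left out (1 without replicate 4 or 6). The comparison with array measures called 0 to 1 when single replicates were left out, the 1 being Cfi and the Gapdh ratio without replicate 7. Averaging the probe sets moved the mean signal of C2 to 882, against 1718, by the construction of a mean that includes a probe set at the floor. The log2 SD moved by over 1.5 times for Akr7a5 (0.12 without replicate 8), Tmed9 (0.12 without replicate 3), Gbp2 (0.47 without replicate 4), Lcn2 (0.24 without replicate 7 and 0.32 with averaged probe sets), Dusp6 (0.29) and C8g (0.05), the last 2 with averaged probe sets, beside the cases in the report, and the cause was not tested. The r of Hc and C9 stayed between 0.549 and 0.945 over all alternatives. The r of Masp1 and C2 lay between -0.846 and -0.017. No paired analysis was possible because all samples form 1 group. Set means removed from the pairs gave values without a test. Dim signals limit what the 2 Cfb probe sets show.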
